A study of Mus musculus with 8 samples.

Results

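The CD8αα and CD8αβ subsets of intestinal intraepithelial lymphocytes (IEL) were compared in the unrestimulated state, at 0 h, on 4 mouse Illumina bead arrays, 2 for each subset. A gene entered the comparison when its deposited detection p-value was under 0.01 on both arrays of either subset. This left 8393 features, among them 6966 named genes, of the 8835 features tested over all 8 arrays of the study and the 31492 array identifiers. Both subsets met the rule for 7325 of the members, only CD8αα IEL for 684 and only CD8αβ IEL for 384. The lowest signals that counted as detected lay between 5.39 and 5.84 on the normalized log2 scale, over the arrays.

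All cells came from the gut of C57BL/6 mice, with no genetic change given. Both groups had been grown for 48 h on plate-bound anti-CD3 antibody at 1 µg/ml with interleukins 2, 3, 4 and 15, held in interleukin 2 alone for 14 days and then sorted, so the 0 h cells were cultured, previously activated cells and not freshly isolated ones. The other 4 arrays hold the same subsets after 24 h back on anti-CD3. The CD8αβ cells carried an αβ T cell receptor per the labels, while the labels of the CD8αα cells disagree (TCRcd, TCRαα and TCRγδ), so this subset is named by its CD8 chain. Nothing in the labels says that replicates came from separate cultures or mice, so a p-value here reflects how far these particular arrays spread, which may be technical variation alone.

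IEL are T cells lodged between the epithelial cells of the gut. Conventional CD8αβ IEL descend from T cells primed by antigen in lymphoid organs and carry αβ receptors with the CD8αβ co-receptor, which brings the kinase Lck to the receptor. CD8αα IEL, of which many carry γδ receptors, are known for low CD5, CD2 and CD28 and for signalling adaptors shared with natural killer (NK) cells, among them the Fc receptor γ chain and DAP12.

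The 4 arrays detected 8341 to 9119 identifiers each, and arrays of one subset correlated across the tested features with r of 0.963 for CD8αα IEL and 0.960 for CD8αβ IEL. The 3 CD3 chain genes with the highest signals, Cd3d, Cd3e and Cd3g, lay between 12.9 and 14.0 on all 4 arrays, and the T cell kinase genes Lck and Zap70 and the adaptor gene Lat were detected on all 4. Ptprc, the pan-leukocyte gene for CD45, was above background by its signal on all 4 arrays but missed the detection rule, and Thy1 read 12.60 and 13.19 in CD8αα IEL and 13.11 and 13.41 in CD8αβ IEL. Cd8a stayed below background on all 8 arrays, so its probe checks nothing about the sort. Cd4 also stayed below background on all 8. Of the marker lists for other cells, 24 of the 27 myeloid genes, 22 of 24 epithelial genes, 11 of 12 fibroblast and endothelial genes and 7 of 8 CD4 T cell genes on the array were below background on each of the 4 arrays, as were all 7 erythroid genes when read from the signal. Replicate 2 of CD8αα IEL was the only one of the 4 arrays on chip 2, so within CD8αα IEL chip and replicate number cannot be told apart. A fit with the chip as a block therefore leans on replicate 1 of CD8αα IEL.

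In CD8αα IEL 22 features were higher and 24 lower than in CD8αβ IEL (normalized log2 signals, limma on all 8 arrays, Benjamini-Hochberg adjusted p under 0.05 over the 8835 tested, that is 0.249% higher, 0.272% lower and 0.521% in all). All 46 were members, and their arrays did not overlap between the subsets. Only 12 were among the 7325 members that met the detection rule in both subsets. Another 14, all higher, were among the 684 that met it in CD8αα IEL alone, and 20, all lower, among the 384 that met it in CD8αβ IEL alone. These 14 and 20 entered the comparison only through the subset where they were high, so their direction partly follows from the rule. The named genes among them were Cited4, Slc2a6, Cd7, Pltp, Aoah, Tshz3, Arl11, 1700009P17Rik and H2-Eb1 on the higher side. On the lower side they were Cd5, Fosl2, Ms4a6d, Tmem51 and Tmie. The 46 comprised 15 named genes higher and 8 lower, from the γ chain genes Tcrg-V5 and Tcrg-V7, with the largest positive differences, to Cd2 and Cd5, with the largest negative ones. The remaining calls were 10 receptor segment identifiers without a current gene name and 13 other identifiers without one, 3 higher and 10 lower. Where the signals of a gene are given, replicate 1 comes first and replicate 2 second in each subset. The largest difference of all belonged to one of the unnamed identifiers, A630038E17RIK (10.16 and 11.93 in CD8αα IEL and 4.94 and 4.80 in CD8αβ IEL), followed among the 3 by A430038C16RIK (8.28 and 8.56 in CD8αα IEL and 5.11 and 4.89 in CD8αβ IEL).

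The number of calls changed with the arrays and the fit used. With the 4 arrays of 0 h alone limma called 0 features, against 702 with an unadjusted p under 0.05. Leaving out one 0 h array left 21 calls without replicate 1 of CD8αβ IEL, 12 without replicate 1 of CD8αα IEL, 6 without replicate 2 of CD8αβ IEL and 3 without replicate 2 of CD8αα IEL. With the chip as a block 17 features passed, 14 of them among the 46, and within chip 1, which leaves 1 array for CD8αα IEL, 0 passed (403 with an unadjusted p under 0.05). All 46 differences kept their sign in each of these fits. Where arrays were only left out, the lack of overlap between the subsets had already fixed the sign. The submitters' own log2 values gave 12 higher and 3 lower. With background estimated from all identifiers 3 features were higher and 0 lower, and 0 of the 46 passed.

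Taken by replicate number, the differences of the 2 array pairs correlated across members with r = 0.713; genes are not independent replicates, and the 2 subsets' arrays of one number also deviated alike. The median difference was -0.01 for replicate 1 and -0.01 for replicate 2. By both numbers 151 members lay more than 1 log2 unit higher in CD8αα IEL and 115 more than 1 lower, and 5 members passed 1 log2 unit in opposite directions. Over the members the quartiles of the mean difference were -0.22 and 0.22. Both CD8αα arrays lay above both CD8αβ arrays for 1619 members (19.3%) and below them for 1648 (19.6%), and counts of the same kind for gene groups are read against these shares.

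**Figure D1:**
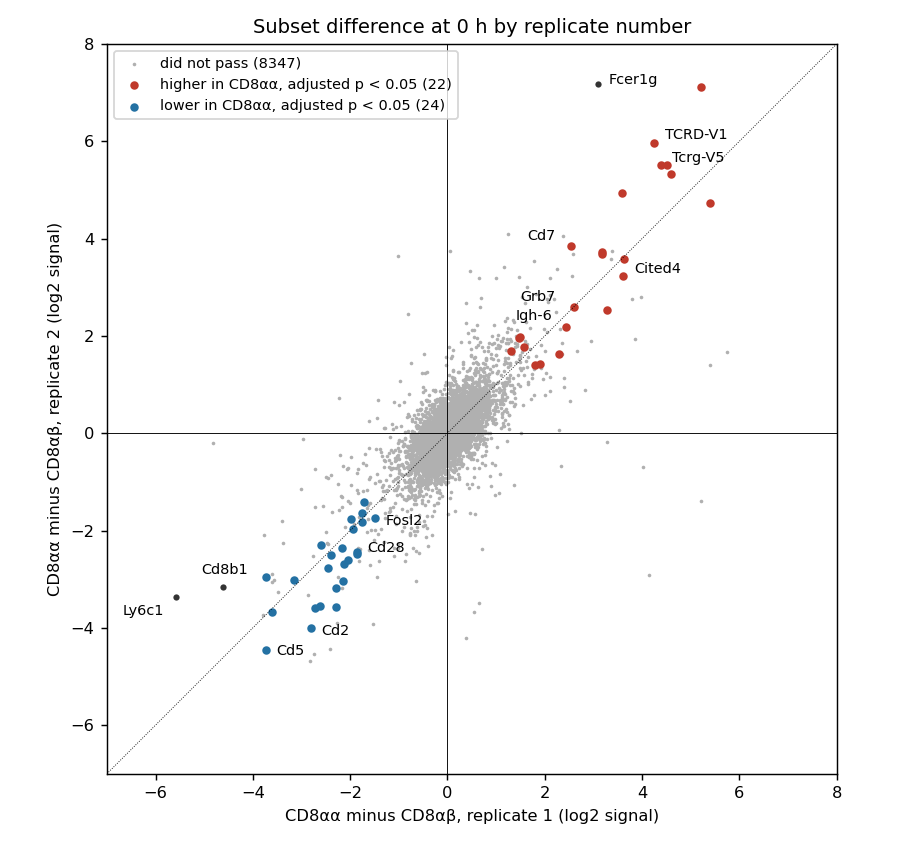
Difference in normalized log2 signal between CD8αα and CD8αβ IEL at 0 h for each of the 8393 members, with replicate 1 on the x axis and replicate 2 on the y axis; the dotted line marks equal values. The 22 higher and 24 lower features keep the same sign by both replicate numbers. They lie at varied distances from that line, with A630038E17RIK at 5.22 and 7.12. Fcer1g, which did not pass, lies farther off it at 3.09 and 7.18.

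In CD8αα IEL 6 γ and δ chain segment identifiers were higher and 6 α chain ones lower. Of 53 segment identifiers on the array 30 were members, and 12 of these passed, against 0.521% of all features. Identifiers of one segment can share targets, and V5 and V7 of the γ chain each have 2 identifiers here, so these are not independent counts.

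Both δ chain members were higher in CD8αα IEL and below background on both CD8αβ arrays. Both met the detection rule in CD8αα IEL only, so their direction partly follows from the rule. TRDV5 read 10.24 and 9.42 in CD8αα IEL and 4.84 and 4.69 in CD8αβ IEL, and TCRD-V1 read 9.11 and 10.53 in CD8αα IEL and 4.86 and 4.56 in CD8αβ IEL. The CD8αα arrays were thus all above 9 on the log2 scale. TRDV5 was at least 18.9-fold higher (adjusted p = 0.00834) and TCRD-V1 at least 18.7-fold higher (adjusted p = 0.017). "At least" here sets the subset mean against the lowest detected signal of the other arrays or the measured signal, whichever was higher. Among the named genes and segments that passed, TRDV5 alone did so in all 8 fits that left out an array.

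The γ chain members were measured in both subsets. TRGV5 read 10.95 and 11.97 in CD8αα IEL and 6.44 and 6.46 in CD8αβ IEL, a 32.3-fold difference (4.51 for replicate 1 and 5.51 for replicate 2; adjusted p = 0.0118), and TRGV7 read 11.23 and 12.19 in CD8αα IEL and 6.64 and 6.86 in CD8αβ IEL, a 31.1-fold difference (4.59 for replicate 1 and 5.33 for replicate 2; adjusted p = 0.0143). The separate identifiers Tcrg-V5 and Tcrg-V7 gave log2 differences of 4.95 and 4.26. In each case both CD8αα arrays were above both CD8αβ arrays, with replicate 2 the higher of the CD8αα arrays. Tcrg-V4 read 12.65 and 13.30 in CD8αα IEL and 9.29 and 9.71 in CD8αβ IEL, with no overlap but an adjusted p of 0.205, so CD8αβ IEL too had a γ segment signal well above background. TRGV2 read 10.55 and 10.73 in CD8αα IEL and 9.79 and 10.83 in CD8αβ IEL, where the subsets overlapped (adjusted p = 0.939).

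All 9 α chain members read below background on both CD8αα arrays, between 4.34 and 4.94, and between 5.66 and 8.43 in CD8αβ IEL. The 9, of 19 α chain identifiers on the array, all met the detection rule in CD8αβ IEL only. That all 9 lay lower in CD8αα IEL therefore partly follows from the rule. Of the 9 members, 6 passed. TRAV3-1 read 4.53 and 4.56 in CD8αα IEL and 8.25 and 7.52 in CD8αβ IEL (at least 5.32-fold lower, adjusted p = 0.0401), and TRAV6D-3 read 4.94 and 4.92 in CD8αα IEL and 7.32 and 7.42 in CD8αβ IEL (at least 3.73-fold lower, adjusted p = 0.0118). TRAV7-1 was at least 2.45-fold lower, TRAV7D-2 at least 2.1-fold, TRAV7D-3 at least 3.25-fold and TCRA-V22.1 at least 2.63-fold. The other members were TRAV6-1, TRAV9-4 and Tcra-V13.1, with adjusted p-values of 0.0753, 0.721 and 0.0844. The constant region identifier of the α chain was above background on 1 of the 4 arrays, replicate 2 of CD8αβ IEL. In these bulk samples fewer cells with a transcript and less of it per cell cannot be told apart.

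No β chain member passed. All 13 had a lower mean in CD8αα IEL, with differences from -3.64 to -0.09, and all were detected there on at least 1 array. The brightest, Tcrb-V13, read 15.16 and 15.29 in CD8αα IEL and 15.49 and 15.62 in CD8αβ IEL (adjusted p = 0.853), and Tcrb-V8.2 read 12.79 and 12.75 in CD8αα IEL and 12.79 and 12.93 in CD8αβ IEL (adjusted p = 0.96). These signals sat close together in both subsets. The largest difference was that of TRBV12-2, which read 7.24 and 7.98 in CD8αα IEL and 9.98 and 12.51 in CD8αβ IEL (adjusted p = 0.352); its CD8αβ arrays stood 2.53 log2 units apart.

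**Figure D2:**
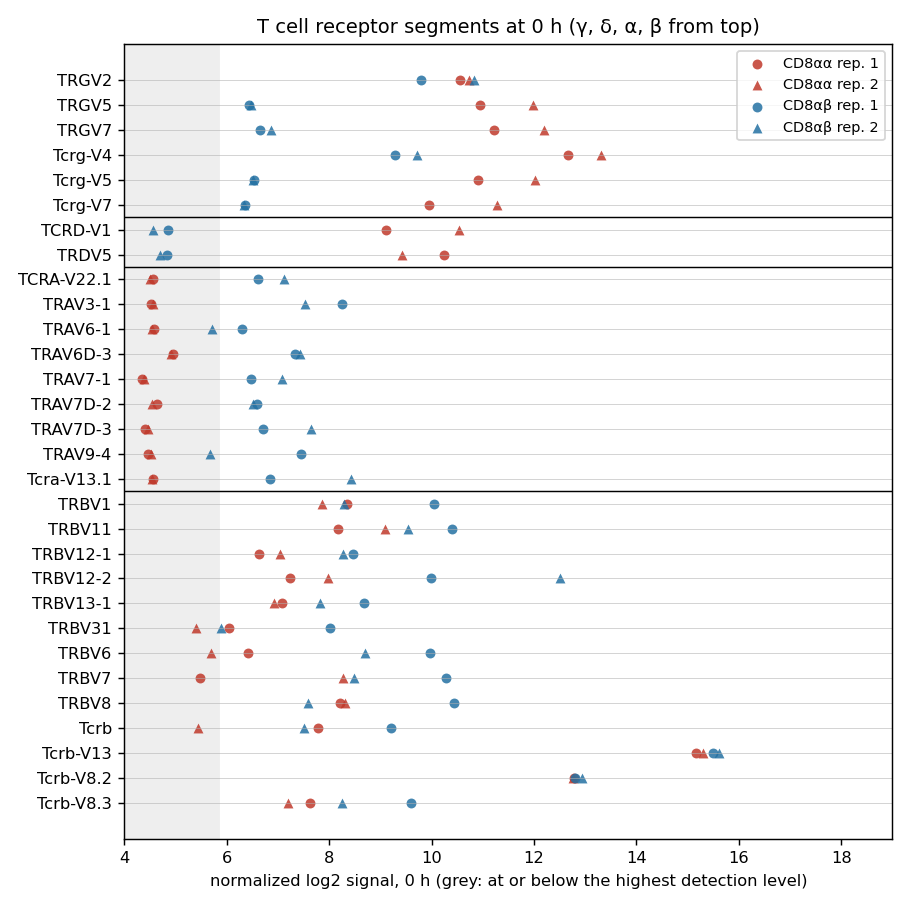
Normalized log2 signal of the 30 receptor segment members on each 0 h array (circles, replicate 1; triangles, replicate 2), grouped as γ, δ, α and β chain from the top. CD8αα arrays are above 9 for both δ members and between 4.34 and 4.94 for the 9 α members, while the β members spread over both subsets.

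Among the co-receptor and CD3 chains no gene passed. Cd8b1, the CD8β chain gene by which the sort separates the subsets, read 8.82 and 10.44 in CD8αα IEL and 13.43 and 13.60 in CD8αβ IEL. The CD8αα arrays were lower by 3 or more log2 units for each number (-4.61 for replicate 1 and -3.15 for replicate 2), yet the adjusted p was 0.062. The signal of Cd8b1 was above background on both CD8αα arrays, though it missed the detection rule there. In the fit that blocks on the chip Cd8b1 passed (adjusted p = 0.00487), but its difference there, -4.58, was close to that of replicate 1 alone. The CD3 genes Cd3d, Cd3e, Cd3g and Cd247 had differences of 0.34, 0.33, 0.51 and 0.37, with adjusted p-values from 0.855 to 0.902. Cd3d, Cd3e and Cd3g were higher on both CD8αα arrays by up to 0.58 log2 units, and Cd247 overlapped.

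Of the listed T cell adhesion and co-stimulation genes Cd5, Cd2 and Cd28 were lower in CD8αα IEL. Of the 29 genes 24 were members and 3 were lower (0.272% of all features were), none higher (0.249% of all features were). The list's median difference was -0.07, against -0.01 over all members, and 8 of the 24 had both CD8αα arrays above and 8 both below, so the list as a whole did not move one way. Within chip 1 its median was -0.32.

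Cd5, a surface receptor that restrains T cell receptor signals, read 4.66 and 4.79 in CD8αα IEL and 8.40 and 9.24 in CD8αβ IEL. Both CD8αα arrays were below background, and both CD8αβ arrays stood clear of it. Cd5 was at least 10.2-fold lower in CD8αα IEL, with a fitted log2 difference of -4.09 ± 0.35 (SE; -3.73 for replicate 1 and -4.45 for replicate 2; adjusted p = 0.0118). Without one array it passed in 5 of 8 fits, and its adjusted p with a chip block was 0.0261.

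Cd2, whose product binds CD48 on neighbouring cells in the mouse, read 7.92 and 7.10 in CD8αα IEL and 10.73 and 11.11 in CD8αβ IEL. The gene was detected in both subsets and lower by 10.6-fold in CD8αα IEL (-2.81 for replicate 1 and -4.01 for replicate 2; adjusted p = 0.0143). Cd28, the receptor for the B7 co-stimulators, read 8.08 and 7.69 in CD8αα IEL and 9.94 and 10.12 in CD8αβ IEL. That made a 4.44-fold difference (-1.86 for replicate 1 and -2.44 for replicate 2; adjusted p = 0.0152), also with no overlap. A chip block gave an adjusted p of 0.0205 for Cd2 and 0.0517 for Cd28.

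Several genes of this group had differences as large but did not pass. They, like most genes named below without a call, were picked by size within their list after their values were seen. Sh2d1a, for the SLAM adaptor SAP, read 5.80 and 4.44 in CD8αα IEL and 8.21 and 8.87 in CD8αβ IEL (adjusted p = 0.0577). Cd6, a close relative of Cd5, read 7.95 and 8.74 in CD8αα IEL and 11.42 and 12.01 in CD8αβ IEL (adjusted p = 0.491). Neither gene's arrays overlapped between the subsets. Ly6c1, of the Ly6 surface protein family and listed with the γδ programme, read 7.73 and 10.11 in CD8αα IEL and 13.30 and 13.47 in CD8αβ IEL, the lowest mean difference of any member, with an adjusted p of 0.205 (0.0314 with a chip block) and 2.38 log2 units between the CD8αα arrays.

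The other lower genes that passed have varied roles. Fosl2, an AP-1 transcription factor of the Fos family, was the one call among 26 receptor-induced early genes (0.521% of all features passed). It read 6.99 and 6.86 in CD8αα IEL and 8.48 and 8.59 in CD8αβ IEL. By their signals all 4 arrays were above background, though Fosl2 missed the detection rule in CD8αα IEL. The 3.06-fold difference was similar by both numbers (-1.49 for replicate 1 and -1.74 for replicate 2, adjusted p = 0.017). Ms4a6d, of the membrane-spanning MS4A family, read 5.50 and 5.56 in CD8αα IEL and 7.96 and 8.33 in CD8αβ IEL, with 1 of the CD8αα arrays below background (adjusted p = 0.0263). Tmem51, a transmembrane protein gene, read 5.02 and 4.78 in CD8αα IEL and 7.17 and 7.81 in CD8αβ IEL and was at least 4.04-fold lower (adjusted p = 0.017). Tmie, known for its part in the mechanotransduction of inner ear hair cells, was at least 3.16-fold lower, and Car5b, a mitochondrial carbonic anhydrase, at least 3.27-fold lower. By their signals Tmem51, Tmie and Car5b were below background on both CD8αα arrays and detected on both CD8αβ arrays. With a chip block none of these passed (adjusted p = 0.0601, 0.0524 and 0.087), nor did Fosl2 (0.0601) or Ms4a6d (0.0661).

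Of 44 listed NK-type receptors and adaptors 21 were members. Among them 1 passed, Cd7, which was higher in CD8αα IEL (0.521% of all features passed). Of the 21, 17 had a higher mean in CD8αα IEL, and 10 had both CD8αα arrays above both CD8αβ arrays (19.3% of all members did). Cd7, Tyrobp and Clnk met the detection rule in CD8αα IEL only, so their direction partly follows from the rule. The list's median difference was 0.83, at 1.23 for replicate 1 and 0.39 for replicate 2, and 16 listed genes were below background on all 4 arrays.

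Cd7, an immunoglobulin superfamily receptor of T and NK cells, read 8.21 and 8.58 in CD8αα IEL and 5.66 and 4.72 in CD8αβ IEL. One CD8αβ array was below background and the other close to it. Cd7 had a fitted log2 difference of 3.20 (2.54 for replicate 1 and 3.85 for replicate 2; adjusted p = 0.0246, or 0.0649 with a chip block). It passed in 3 of the 8 fits with an array left out. Fcer1g, the Fc receptor γ chain that can take the place of CD3ζ in receptor signalling, read 13.28 and 13.22 in CD8αα IEL and 10.19 and 6.04 in CD8αβ IEL. The CD8αα arrays nearly coincided, but the CD8αβ arrays lay 4.15 log2 units apart, and the adjusted p was 0.367. Tyrobp, for the adaptor DAP12, read 8.72 and 7.29 in CD8αα IEL and 4.92 and 4.53 in CD8αβ IEL (adjusted p = 0.0664, or 0.0069 when the chip is a block). Hcst, for the adaptor DAP10, was bright in both subsets, at 12.16 and 12.21 in CD8αα IEL and 11.38 and 11.59 in CD8αβ IEL (adjusted p = 0.853).

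Other members with no overlap were Clnk, an SLP-76 family adaptor (7.55 and 7.67 in CD8αα IEL and 6.08 and 4.45 in CD8αβ IEL; adjusted p = 0.167), and Cd160, a receptor for HVEM (13.35 and 12.82 in CD8αα IEL and 11.36 and 10.67 in CD8αβ IEL; adjusted p = 0.429). Klra7 and Pilrb1 lay the other way, with differences of -1.34 and -2.23, both short of the threshold.

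Genes with the largest passing differences outside the receptors were a mixed set of regulators and transporters. Cited4, a co-activator that binds CBP and p300, read 8.38 and 8.38 in CD8αα IEL and 4.76 and 4.79 in CD8αβ IEL. The arrays of each subset nearly coincided. CD8αβ IEL were below background, which made Cited4 at least 6.88-fold higher in CD8αα IEL (3.62 for replicate 1 and 3.59 for replicate 2; adjusted p = 0.0285). Chn2, for the Rac-inactivating protein β2-chimaerin, read 9.78 and 9.56 in CD8αα IEL and 6.60 and 5.83 in CD8αβ IEL, a log2 difference of 3.46 (3.18 for replicate 1 and 3.73 for replicate 2; adjusted p = 0.0118), and passed in 6 of 8 fits without one array. Grb7, an SH2 domain adaptor, read 8.47 and 8.60 in CD8αα IEL and 5.86 and 6.00 in CD8αβ IEL. Its 6.07-fold difference was 2.61 by one number and 2.60 by the other on the log2 scale (adjusted p = 0.0118; 0.0223 with a chip block). Slc2a6, for the hexose transporter GLUT6, read 8.88 and 8.26 in CD8αα IEL and 5.59 and 5.72 in CD8αβ IEL, with 1 CD8αβ array below background (adjusted p = 0.0351). With a chip block Chn2 passed too (adjusted p = 0.0301), while Cited4 and Slc2a6 did not (adjusted p = 0.0618 and 0.114).

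The smaller calls on this side were near background in CD8αβ IEL. Pltp, for phospholipid transfer protein, was at least 1.9-fold higher, Aoah, for an enzyme that deacylates bacterial lipopolysaccharide, at least 2.7-fold, Tshz3, a zinc finger factor, at least 2.04-fold and Arl11, an ARF-like GTPase, at least 1.98-fold. All of these were below background on both CD8αβ arrays. 1700009P17Rik read 7.85 and 7.47 in CD8αα IEL and 5.57 and 5.85 in CD8αβ IEL, with 1 CD8αβ array below background. Agtrap, for an angiotensin receptor-associated protein, was the exception, detected on all 4 arrays at 9.95 and 9.71 in CD8αα IEL and 8.37 and 7.94 in CD8αβ IEL. The adjusted p-values of these genes lay between 0.0209 and 0.0323. With a chip block none of them passed (adjusted p between 0.0661 and 0.091).

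**Figure D3:**
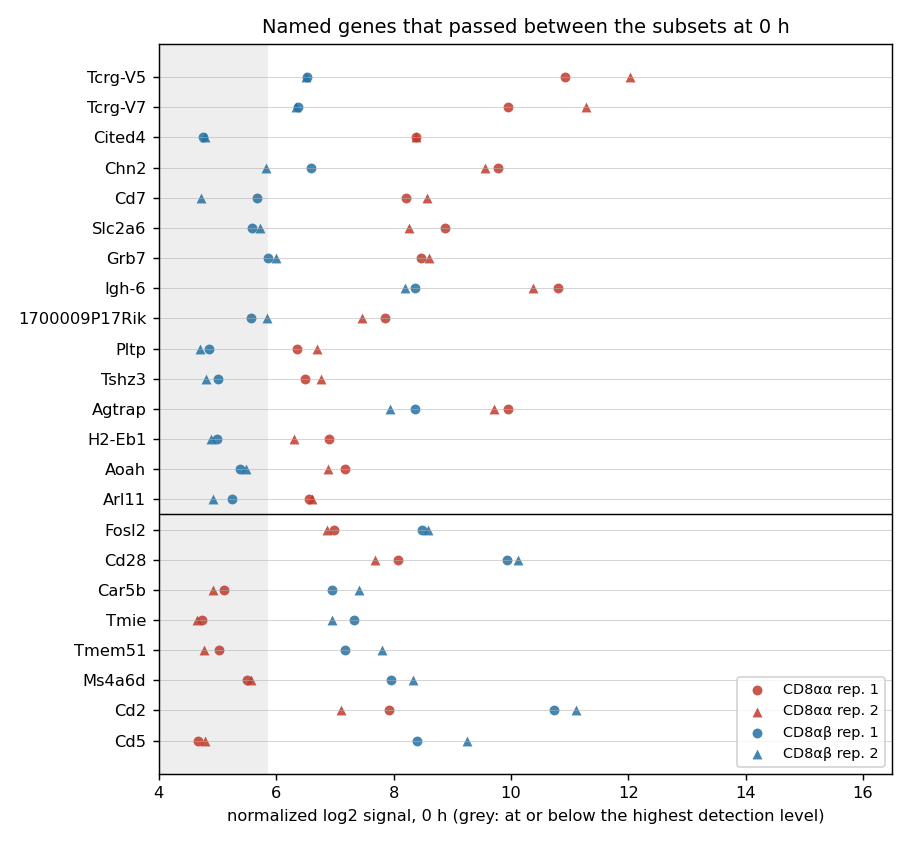
Normalized log2 signal on each 0 h array of the 15 named genes higher and, below the line, the 8 lower in CD8αα IEL (circles, replicate 1; triangles, replicate 2). In each row the red and blue points do not overlap, and Cited4, Pltp, Tshz3, H2-Eb1, Aoah and Arl11 have both blue points below background.

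For 14 of the 23 named genes that passed, a start-site window is given in the RefSeq table for GRCm38.p6, from 250 bases before to 50 after the gene's start. Windows are shown for the inhibitory receptor gene Cd5, for Fosl2 and for Cited4, which stand for both directions of the comparison, on their coding strands, 5′ to 3′, in lower case with motif matches in capitals. Their positions are chr19:10738925-10739224 (minus strand), chr5:32136222-32136521 (plus strand) and chr4:120666313-120666612 (plus strand).
Cd5: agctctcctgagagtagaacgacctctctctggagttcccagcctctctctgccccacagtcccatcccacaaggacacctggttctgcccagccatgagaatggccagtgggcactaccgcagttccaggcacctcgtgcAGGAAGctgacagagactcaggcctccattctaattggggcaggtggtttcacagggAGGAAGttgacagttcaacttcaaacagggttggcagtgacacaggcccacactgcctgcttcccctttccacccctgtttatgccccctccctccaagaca
Fosl2: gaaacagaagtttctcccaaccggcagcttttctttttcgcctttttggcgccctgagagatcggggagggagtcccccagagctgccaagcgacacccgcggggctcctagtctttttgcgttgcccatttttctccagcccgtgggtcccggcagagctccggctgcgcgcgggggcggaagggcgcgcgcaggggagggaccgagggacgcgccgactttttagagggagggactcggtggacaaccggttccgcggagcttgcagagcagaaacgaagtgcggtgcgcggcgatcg
Cited4: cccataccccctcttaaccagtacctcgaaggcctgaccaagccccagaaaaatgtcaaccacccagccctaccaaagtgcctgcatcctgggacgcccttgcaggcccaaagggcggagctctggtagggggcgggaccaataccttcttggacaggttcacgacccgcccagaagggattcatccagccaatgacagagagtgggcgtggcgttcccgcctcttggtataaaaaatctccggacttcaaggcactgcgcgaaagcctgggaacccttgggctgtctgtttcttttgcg
Motifs searched on both strands were TGTGGT for RUNX factors, AGGAAG for ETS factors, TGANTCA for AP-1 and the E-box CAGCTG. The Cd5 window held 2 AGGAAG matches, and the other windows shown held none of the 4 motifs. Over the genes with a window, AGGAAG was in 3 of 9 higher and 2 of 5 lower genes, against 35.4% of all 32851 windows. TGTGGT was in 2 of 9 and 0 of 5 (16.8% of all), CAGCTG in 3 of 9 and 1 of 5 (16.3%) and TGANTCA in 0 of 9 and 0 of 5 (7.81%). A match describes letters in the window only.

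Of transcripts known from B cells and antigen-presenting cells, Igh-6 and H2-Eb1 were higher in CD8αα IEL. Igh-6, the constant region of the IgM heavy chain, read 10.81 and 10.38 in CD8αα IEL and 8.37 and 8.20 in CD8αβ IEL. It was thus detected in both subsets and 4.97-fold higher in CD8αα IEL (adjusted p = 0.0195, or 0.0631 with a chip block). Cd79b, a B cell receptor signalling chain, read 9.21 and 9.26 in CD8αα IEL and 7.09 and 6.08 in CD8αβ IEL (adjusted p = 0.137). These 2 were the members among the 12 B cell markers on the array, and the other 10, the defining genes Cd79a, Ms4a1 and Pax5 among them, were below background on all 4 arrays. The summed linear signal of the 12 was 2199 to 2639 on the CD8αα arrays and 618 to 725 on the CD8αβ arrays.

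Of 10 MHC class II pathway genes on the array 5 were members, and all 5 had a higher mean in CD8αα IEL. Of these 4 had no overlap (19.3% of all members had both CD8αα arrays above). For H2-Oa, 1 of the 4, the nearest arrays of the subsets almost met, at 7.594 and 7.589. H2-Eb1 and H2-DMb1 met the detection rule in CD8αα IEL only, so their direction partly follows from the rule. H2-Eb1, the β chain of I-E, read 6.90 and 6.30 in CD8αα IEL and 4.99 and 4.88 in CD8αβ IEL. It was at least 2.01-fold higher (adjusted p = 0.0448, or 0.0524 with a chip block). H2-DMa, of the peptide exchange factor H2-DM, read 9.46 and 9.67 in CD8αα IEL and 8.23 and 7.74 in CD8αβ IEL (adjusted p = 0.0848), and H2-DMb1 read 6.93 and 6.44 in CD8αα IEL and 5.56 and 5.51 in CD8αβ IEL (adjusted p = 0.26). Cd74, the invariant chain, read 7.27 and 7.42 in CD8αα IEL and 4.74 and 4.73 in CD8αβ IEL, where the CD8αβ arrays were below background; it averages several probes, missed the detection rule and was not tested. H2-Aa was below background on all 8 arrays. The summed signal of the list was 1682 to 2059 on the CD8αα arrays and 697 to 1051 on the CD8αβ arrays. The myeloid and dendritic list summed to 657 to 871 in CD8αα IEL and 718 to 859 in CD8αβ IEL. The part of other cells in these differences was not tested.

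Effector genes showed no call. Gzmb, for granzyme B, was below background on all 8 arrays and was not tested. A gene that is not expressed and a probe that gives no signal cannot be told apart here. Gzma read 6.10 and 6.99 in CD8αα IEL and 5.98 and 5.69 in CD8αβ IEL (adjusted p = 0.807), and the perforin gene Prf1 read 11.27 and 9.74 in CD8αα IEL and 12.01 and 10.34 in CD8αβ IEL, where the subsets overlapped (adjusted p = 0.9). Gzmk, for granzyme K, lay lower in CD8αα IEL, at 8.48 and 9.15 in CD8αα IEL and 9.92 and 12.11 in CD8αβ IEL (adjusted p = 0.835). The interferon gamma gene Ifng read 9.68 and 9.89 in CD8αα IEL and 9.03 and 13.38 in CD8αβ IEL, so that the sign of its difference changed with the replicate number (0.65 for replicate 1 and -3.49 for replicate 2). Of 22 cytotoxic granule members 0 passed, and 10 had both CD8αα arrays above and 4 both below (19.3% and 19.6% of all members did), with a median of 0.27.

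All 7 chemokine members had a higher mean in CD8αα IEL and none passed. Xcl1 read 13.80 and 13.37 in CD8αα IEL and 8.06 and 11.69 in CD8αβ IEL and Ccl1 12.28 and 9.94 in CD8αα IEL and 6.88 and 8.55 in CD8αβ IEL, each with no overlap but with differences that depended on the number (5.74 for replicate 1 and 1.67 for replicate 2 of Xcl1). Their adjusted p-values were 0.351 and 0.303. The list's median was 4.13 by replicate 1 and 0.14 by replicate 2. Ccl5 was bright on all 4 arrays, at 13.98 and 14.11 in CD8αα IEL and 12.96 and 13.43 in CD8αβ IEL.

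Genes of residence in the epithelium included Itgae, the integrin αE chain that binds E-cadherin, at 11.89 and 12.05 in CD8αα IEL and 9.84 and 9.29 in CD8αβ IEL (adjusted p = 0.322), and Nt5e, for the ecto-nucleotidase CD73, at 9.38 and 9.33 in CD8αα IEL and 7.94 and 7.54 in CD8αβ IEL (adjusted p = 0.746). In both genes the CD8αα arrays were the higher ones. Itgb1, for integrin β1, lay the other way at 6.37 and 5.75 in CD8αα IEL and 7.13 and 7.85 in CD8αβ IEL (adjusted p = 0.205). None of the 12 members passed.

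Among 32 transcription factor members 0 passed, 13 had both CD8αα arrays above and 3 both below (19.3% and 19.6% of all members did). Ikzf2, for the Ikaros family factor Helios, read 8.30 and 9.47 in CD8αα IEL and 4.91 and 5.73 in CD8αβ IEL, with similar differences by number (3.39 for replicate 1 and 3.74 for replicate 2) and an adjusted p of 0.0664. Tcf7, for TCF-1, read 6.97 and 7.88 in CD8αα IEL and 6.31 and 4.70 in CD8αβ IEL (adjusted p = 0.469). Eomes, a T-box factor of effector and memory cells, was lower on both CD8αα arrays, at 5.61 and 5.32 in CD8αα IEL and 7.78 and 6.84 in CD8αβ IEL (adjusted p = 0.167). Ikzf2 and Tcf7 met the detection rule in CD8αα IEL only and Eomes in CD8αβ IEL only, so their directions partly follow from the rule.

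The lists of mitosis, DNA replication and ribosome assembly genes had medians below 0, with 0 calls in each. The 23 cell cycle regulators were mixed, with 11 means higher and 12 lower in CD8αα IEL (median -0.13, 0 calls). Of 24 mitosis members 23 had a lower mean and 12 had both CD8αα arrays below both CD8αβ arrays (19.6% of all members did). The list's median was -0.49, with -0.18 by replicate 1, -0.69 by replicate 2 and -0.11 within chip 1. Birc5, for the mitotic regulator survivin, read 11.81 and 11.07 in CD8αα IEL and 12.22 and 11.89 in CD8αβ IEL. For DNA replication 22 of 40 were below and 1 above, with a median of -0.23 (-0.06 with a chip block), and for ribosome assembly 21 of 33 were below and 0 above, with a median of -0.42 and -0.25 within chip 1. Rrp1b, a ribosomal RNA processing gene, read 10.32 and 9.70 in CD8αα IEL and 11.10 and 10.69 in CD8αβ IEL.

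The amino acid supply and glycolysis lists also had medians below 0, again with 0 calls. Of 21 genes of amino acid supply 19 had a lower mean and 9 had both CD8αα arrays below (median -0.34), and of 15 glycolysis genes 14 had a lower mean and 6 both arrays below (median -0.39, and -0.17 within chip 1). Slc7a5, a large neutral amino acid transporter gene, read 10.38 and 9.56 in CD8αα IEL and 12.01 and 11.04 in CD8αβ IEL (adjusted p = 0.459), and Hk2, for hexokinase 2, read 10.70 and 9.23 in CD8αα IEL and 11.76 and 11.10 in CD8αβ IEL (adjusted p = 0.606). Oxidative phosphorylation stood at a median of 0.02 over 52 members, with 8 above and 7 below (19.3% and 19.6% of all members).

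The GIMAP GTPases, lymphocyte proteins linked to T cell survival, were on the other side. All 7 members had both CD8αα arrays above both CD8αβ arrays, with differences between 0.53 and 0.95 and a median of 0.74 (0.62 by replicate 1 and 0.84 by replicate 2). Gimap8 read 11.92 and 11.65 in CD8αα IEL and 11.02 and 10.66 in CD8αβ IEL, yet neither it nor another member passed (adjusted p = 0.196 for Gimap8). Genes of resting T cells had a median of 0.36 over 23 members (0.11 with a chip block), with 11 above and 1 below. For the BCL2 family, which sets the threshold for cell death, the median was 0.27 over 21, with 9 above and 0 below. Over all members 19.3% lay above and 19.6% below. Sesn1, for a sestrin that restrains mTORC1, read 10.43 and 10.33 in CD8αα IEL and 9.16 and 9.26 in CD8αβ IEL, and Bcl2l11, for the death-promoting protein BIM, read 7.84 and 8.19 in CD8αα IEL and 6.95 and 6.64 in CD8αβ IEL; neither passed.

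**Figure D4:**
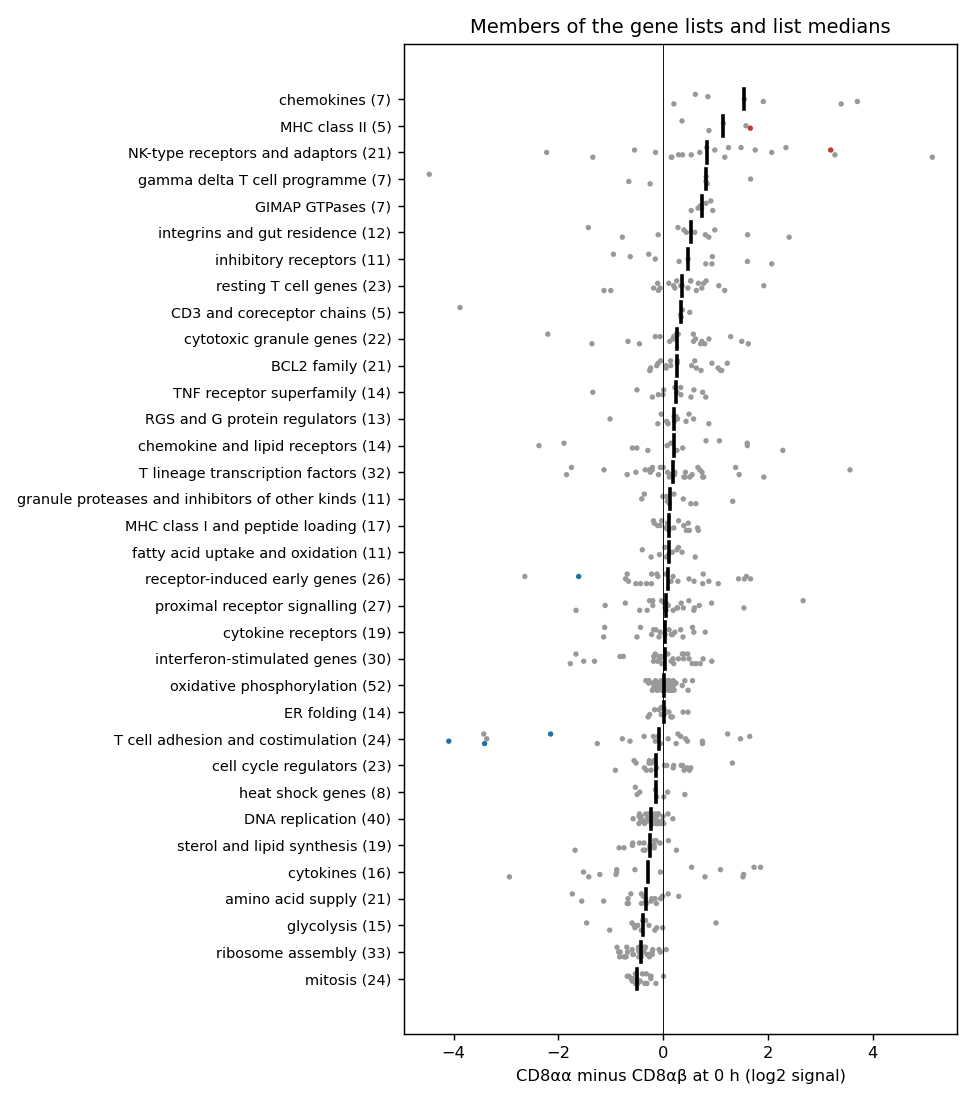
Log2 difference between CD8αα and CD8αβ IEL at 0 h for the members of the 34 gene lists with at least 5 members (number in brackets), ordered by list median (black bar); red points are higher and blue points lower at an adjusted p under 0.05, grey points did not pass. List medians run from -0.49 for mitosis to 1.55 for chemokines.

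At 24 h the same genes were compared on the other 4 arrays. Of the 46 features 45 kept the sign of their 0 h difference and 20 passed at 24 h too, and 44 had a smaller difference there, the exceptions being Cd5 and Cd2. These features were chosen for their difference at 0 h. Cd5 differed by -4.85 at 24 h (adjusted p = 0.012), Cd2 by -4.73 (adjusted p = 0.012), Chn2 by 3.11 (adjusted p = 0.0165) and Grb7 by 2.32 (adjusted p = 0.018). Fosl2, above background by its signal on all 4 arrays of 24 h, differed by -0.25 there. Of the 46 features 10 were below background on all 4 arrays of 24 h, Cd7 and 1700009P17Rik, the one with a turned sign, among them, so the size and sign of their differences at 24 h carry no measurement. Of the genes that missed at 0 h, Sh2d1a passed at 24 h, with a difference of -4.36 (adjusted p = 0.0272). The change of the difference between the times, tested as an interaction in limma, passed for 0 of 8835 features (146 with an unadjusted p under 0.05, 18 of them among the 46), so a difference between the times was not shown for any gene.

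**Figure D5:**
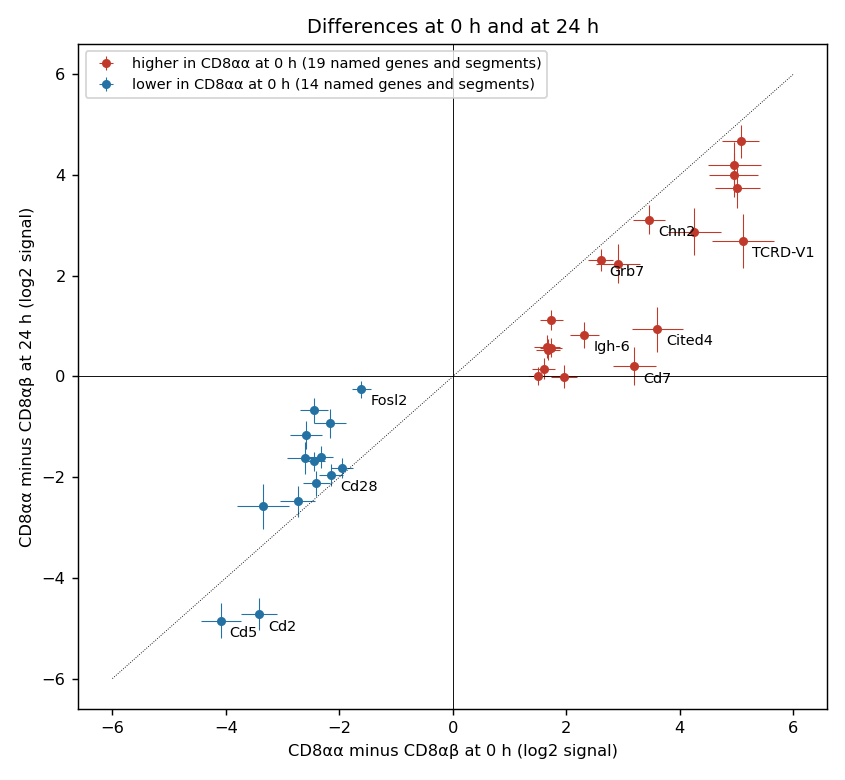
Log2 difference between CD8αα and CD8αβ IEL at 0 h (x axis) and at 24 h (y axis) for the 33 named genes and receptor segments that passed at 0 h, with bars of 1 SE and a dotted line at equal values. Cd5 and Cd2 lie farther from 0 at 24 h than at 0 h; Chn2, at 3.46 and 3.11, and TRDV5, at 5.07 and 4.67, lie near the line, and TCRD-V1, at 5.11 and 2.69, lies well inside it.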

How the data were processed

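Total RNA of 8 samples was hybridised to mouse Illumina bead arrays, 2 in each of 4 groups. Each deposited intensity is the mean signal of an identifier's beads on one array, not normalized per the file headers, and the deposited bead numbers (median 45) go with them. The deposited detection p-value ranks each identifier against the array's negative controls, per the file headers. Submitters' log2 values were deposited as well, with lumi named in the submitters' processing notes (its version is not given in the sources used here); they served as an alternative.

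Background was corrected by normexp with offset 16, estimated from the 22828 identifiers read as single-probe, before quantile normalization and log2. Symbols were updated through Entrez ID or accession where possible, 9555 identifiers stayed unnamed, and the brightest identifier stood for a gene. A limma model (limma 3.58.1, R 4.3.3) with 4 group means was fitted to all 8 arrays (4 residual degrees of freedom) over 8835 features, with Benjamini-Hochberg adjustment at 0.05, and adjusted p-values come from it unless a chip block is named. SE is the moderated standard error. On simulated data this fit called 11.7% of the 2-fold differences set between the subsets at 0 h, 67.8% of the 4-fold ones and 87.7% of the 8-fold ones, with 9 unchanged features called. The simulated arrays varied independently, whereas same-numbered arrays of the study deviated together. These rates therefore need not hold for the real arrays. The deposited detection p left out 1261 identifiers that were bright at 0 h by their signal, all read as averaging several probes. Below background, folds and marker counts use detection read from the signal.

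Named are the 15 largest passing genes a direction with no overlap, up to 3 and 2 passing genes per list, and a fixed set (receptor segments, CD3, CD4 and CD8 chains, Cd5, Cd2, Cd28, Fcer1g, Tyrobp, Hcst, Cd7, Gzma, Gzmb, Prf1, Ifng). List genes named beyond this rule did not pass and, like the unnamed identifiers given, were picked after their values were seen. The members and the 41 lists were chosen with earlier results of these data known. Alternatives covered background, scaling, filter, summary per gene, samples, replicate and chip blocks, and leaving out each array.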

Additional observations from a re-analysis of the deposited data

How the results depend on the processing

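The number of arrays limits all counts, and low signals near background carry little order. Against 22 features higher and 24 lower in CD8αα IEL, the 4 arrays of 0 h alone and chip 1 alone gave 0 and 0, as fits with fewer samples (702 and 403 features with an unadjusted p under 0.05). The chip as a block gave 12 and 5, and the submitters' log2 values 12 and 3. Background taken from all identifiers gave 3 and 0, and 0 of the 46 calls passed there. No detection filter, which tests many more features, gave 2 and 4. Beyond these constructions the cause was not tested. Named genes only, an alternative chosen after seeing the data, gave 12 and 7. Leaving out single arrays gave 3 to 17 higher and 0 to 24 lower, and there the lone array of a group is assumed to vary like the others. No background correction (17 and 18), median scaling (31 and 31, all features shifted by 0.06), detection from the signal (23 and 25), the mean of a gene's identifiers (22 and 24) and adjustment over the members alone (22 and 24) stayed within 1.5 times. All 46 called differences kept their sign in all 20 alternatives that were refitted or readjusted. Where arrays were only left out or p-values only readjusted, the sign could not turn, as the subsets did not overlap. List medians with 5 or more members kept their sign for 27 to 34 of 34 lists, fewest without replicate 1 of CD8αβ IEL. The change of the difference between 0 h and 24 h had 0 calls in each fit made. Same-numbered arrays deviated together from their group means (r = 0.70 at 0 h, 0.53 to 0.70 over all pairs of groups), but share only a number per the labels. The replicate block gave 109 higher and 81 lower, the 46 among them.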

Other observations

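Several members outside the groups described above had CD8αα and CD8αβ arrays that did not overlap but did not pass, and were picked by size within their lists after their values were seen. The interferon-induced membrane protein genes Ifitm1, Ifitm2 and Ifitm3 had log2 differences of -1.67, -1.77 and -1.52 between CD8αα and CD8αβ IEL (adjusted p = 0.61, 0.305 and 0.262), while the list of 30 interferon-stimulated members had a median of 0.03. Ifitm2 read 12.72 and 11.50 in CD8αα IEL and 14.03 and 13.74 in CD8αβ IEL. Among signalling genes Plcg2, for phospholipase Cγ2, read 12.13 and 11.51 in CD8αα IEL and 10.64 and 9.92 in CD8αβ IEL (adjusted p = 0.205), and Ubash3a, for a negative regulator of T cell receptor signals, read 6.40 and 5.86 in CD8αα IEL and 7.76 and 7.83 in CD8αβ IEL (adjusted p = 0.469). The lipid receptor genes Lpar6 and Gpr18 had differences of 1.61 and 1.60 (adjusted p = 0.13 and 0.241), and the chemokine receptor gene Cxcr4 one of -1.89 (adjusted p = 0.297). The inhibitory receptor genes Lag3 and Havcr2 lay in opposite directions, at 0.94 and -0.95 (adjusted p = 0.328 and 0.368). Ier3, an early gene induced by receptor signals, had a difference of -2.64 (adjusted p = 0.313).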
